A study of Mus musculus with 4 samples.

Results

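The nuclear genes that encode subunits of the mitochondrial respiratory chain and ATP synthase were examined in mouse blastocysts. They were chosen by symbol alone, from the genes listed in both assays: Nduf genes for complex I, Sdha to Sdhd for complex II, Uqcr genes for complex III, Cox4 to Cox8 genes for complex IV and Atp5 genes for complex V. This gave 85 of 20714 genes, with 38 in complex I, 4 in complex II, 8 in complex III, 18 in complex IV and 17 in complex V. The study followed mRNA, translation and protein through the oocyte-to-embryo transition, and the blastocyst libraries were analysed here: 2 RNA-seq replicates (mRNA, Smart-seq2) and 2 Ribo-seq replicates (ribosome-protected fragments, RPF, made with Ribo-lite). All 4 libraries came from wild-type, untreated embryos with a C57BL/6J mother of 4 weeks and a PWK/PhJ father (the strain label reads C57BL/6N x PWK). The mothers had been injected with the hormones PMSG and hCG to induce ovulation. The embryos were taken at the 8-cell stage, grown in KSOM and stripped of the zona with acid. These were whole embryos, so fewer cells of a type and less RNA per cell cannot be told apart. No source said that replicates came from separate collections, so p-values measured only the spread between these libraries, which may be technical.

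Low values fell on steps of whole fragments, which implied 5454277 and 5157129 fragments in the mRNA replicates and 535509 and 485917 in the RPF replicates. All 7 trophectoderm markers were at 1 FPKM (fragments scaled to gene length and library depth) or more in every library, as were 3 of 6 epiblast markers (Pou5f1, Nanog and Tdgf1) and 2 of 6 primitive endoderm markers (Gata6 and Dab2). The summed epiblast markers were at 164 and 60.3 FPKM in the mRNA replicates and at 898 and 1079 in the RPF replicates. All 6 cumulus and granulosa markers were at 0, 4 of 6 oocyte markers were at 0, and of 8 heart and skeletal muscle markers Myh6 and Myh7 were at 0 while Ckm and Acta1 were at 1 FPKM or more.

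Complexes I and II take electrons from NADH and succinate, complex III passes them to cytochrome c, and complex IV reduces oxygen. The proton gradient made on the way drives the rotor of complex V, in which a ring of c subunits turns the gamma subunit inside a head of alternating alpha and beta subunits. A small set of core subunits is encoded by mitochondrial DNA, and the nuclear subunits described here are made in the cytosol and imported. Several complex IV subunits exist as paralogs, with a general form and forms known from heart and muscle, testis or lung.

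Many of these subunits are very small, which set how their values could be read. The median coding length was 397.5 bases in the 84 members with a coding sequence in the annotation, against 1269 bases in all genes compared, and 26.9% of compared members were under 300 bases against 2.12% of all genes. The authors' FPKM divides by an effective length that takes the spread of fragment lengths into account, and for short coding sequences this length becomes much smaller than the sequence. For Atp5e, with 156 coding bases, the effective length was 13.6 bases, so the deposited RPF FPKM was 11.5 times the value per full coding length. Values are therefore given as deposited (FPKM) and, where stated, rescaled to the full coding length (RPF) or transcript length (mRNA).

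The 3 genes for the c subunit of ATP synthase, Atp5g1, Atp5g2 and Atp5g3, are shown first because they encode the same mature ring protein from different DNA. Over their last 234 coding bases the encoded residues were identical, whereas Atp5g1 differed from Atp5g2 at 36 bases and from Atp5g3 at 50, and Atp5g2 from Atp5g3 at 53. No 28-base window, about the length of a footprint, was shared between any pair of the 3, although most windows of Atp5g1 and all of Atp5g2 occurred at other genome places too, so their footprints could not be assigned with certainty. Within annotated coding sequences of other genes, 0% of the windows of Atp5g1 and 6.28% of those of Atp5g2 recurred. The stretches below cover 90 bases of this part (5′ to 3′, NCBIM37, all on the minus strand), with capitals at the 24 positions where the 3 genes are not all the same. The genes lie at chr11:95930166-95936984, chr15:102493299-102501478 and chr2:73746504-73749383.
Atp5g1: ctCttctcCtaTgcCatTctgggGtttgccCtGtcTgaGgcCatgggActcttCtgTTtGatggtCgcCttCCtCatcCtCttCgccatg
Atp5g2: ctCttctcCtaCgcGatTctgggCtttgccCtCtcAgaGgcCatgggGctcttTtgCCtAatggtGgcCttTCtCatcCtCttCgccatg
Atp5g3: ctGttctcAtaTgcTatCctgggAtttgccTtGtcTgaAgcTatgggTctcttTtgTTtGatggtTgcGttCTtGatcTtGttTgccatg

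Respiratory chain subunits were among the most abundant messages of the blastocyst. Of the 85 genes, 79 were above 0 in all 4 libraries and 70 were at 100 FPKM or more in all 4. Their summed FPKM was 9.98% and 9.82% of all mRNA FPKM and 7.53% and 7.80% of all RPF FPKM, and per full length the shares were 8.70% and 8.61% for mRNA and 4.99% and 5.12% for RPF. Replicates ranked the members almost alike, with a Spearman rho of 0.992 for mRNA and 0.980 for RPF, and mean mRNA and mean RPF had a rho of 0.864 (84 members, 0.832 per full length). These correlations were across genes, which are not independent, and the points shared libraries. In mRNA the replicates of Ndufs5 were over 2 times apart, and in RPF those of Ndufb3 were.

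The complexes differed in level (79 members that passed the filter on low values, mean of at least 1 FPKM in both assays). Per full length, the median mRNA value was 199 and 196 in complex I, 99.4 and 92.5 in complex II, 294 and 360 in complex III, 772 and 780 in complex IV, and 662 and 689 in complex V. The median RPF value was 273 and 263 in complex I, 171 and 156 in complex II, 465 and 533 in complex III, 764 and 717 in complex IV, and 753 and 835 in complex V. On this scale complexes IV and V were highest and complex II lowest in every library, and complexes IV and V changed places between the RPF replicates. In deposited FPKM the median RPF was instead highest in complex III (2008 and 2524), above complex IV (1661 and 1845) and complex V (1484 and 1645). Within complexes the log2 SD of mRNA per full length was smallest in complex V (0.44 and 0.45, 17 genes), as against 0.83 and 0.88 in complex I. In RPF it was 0.50 and 0.58 in complex V and 0.68 and 0.39 over the 4 genes of complex II. In complex IV the SD was 2.43 and 2.42 in mRNA, with the low paralogs Cox7a1 and Cox6b2 included.

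**Figure D1:**
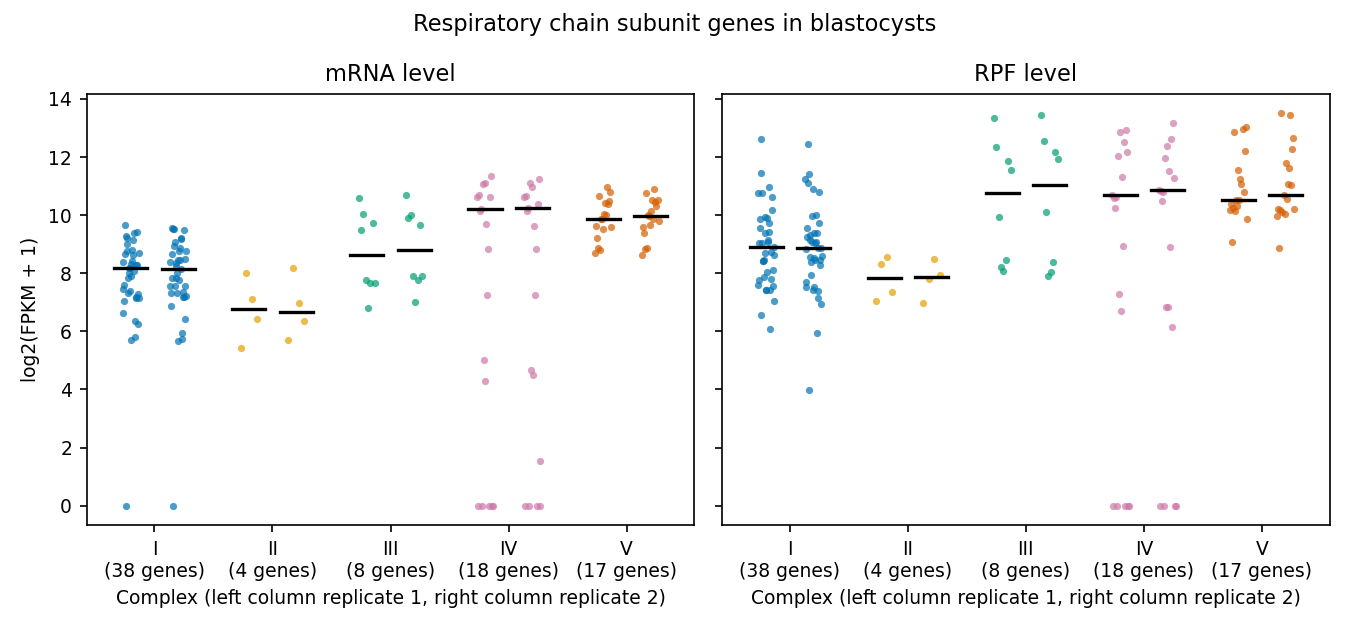
Level of each subunit gene as log2(FPKM + 1) in mRNA (left) and RPF (right), by complex, with replicate 1 in the left and replicate 2 in the right column of each complex; points are genes, and black lines are medians over the genes that passed the filter on low values. Median mRNA FPKM was lowest in complex II (110 and 103) and highest in complex IV (1192 and 1204), whereas median RPF FPKM was highest in complex III (2008 and 2524). The points at 0 belong to complex IV paralogs and Ndufa4l2.

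Next, RPF was compared with mRNA for each gene, which asks how the ribosome occupancy of a subunit ranked against its message. Each library was centred on the median of the 8327 genes compared, so a difference says only how a gene stood relative to the other genes. Of 79 members in this comparison, 9 were higher in RPF relative to mRNA (11.4%) and 26 were lower (32.9%), at an adjusted p under 0.05 (limma, Benjamini-Hochberg over all genes) and a log2 difference of at least 1. Among all genes 10.3% were called higher and 8.6% lower. The median log2 difference was −0.45 in the members and −0.24 in all genes. Without centring, the median of all genes moved to 1.26 and the split became 41 higher and 0 lower, and with quantile normalization it was 5 higher and 36 lower, so "higher" and "lower" below hold for the centred scale. The counts also fell when either mRNA replicate was left out, which leaves 1 library in that assay. The median member difference was then −0.46 without mRNA replicate 1 and −0.44 without mRNA replicate 2.

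The members that were higher were mostly short, and those that were lower were mostly longer. Calls were not counted among all genes of each length, so the counts by length are a description only. Of 21 members under 300 bases, 7 were higher and 1 was lower, with a median of 0.77, and the median of all 174 genes of this length was 0.76. Of 57 longer members, 2 were higher and 25 lower, with a median of −0.85 against −0.26 in all longer genes. Rescaled to full length, the short members had a median of −0.9997 (1 higher, 10 lower) and the longer members −1.11 (0 higher, 32 lower), while all short genes had −0.56 and all longer genes −0.23. In total, 1 of 78 members was then higher (1.28%) and 42 were lower (53.8%), with a median of −1.11 and −0.24 in all 8067 genes, of which 9.4% were called higher and 10.1% lower. All 26 genes lower in FPKM were lower per full length too, and of the 9 higher only Uqcrq remained. The lower count at full length was 38 to 43 when any library was left out.

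Other abundant genes were set beside the members, a comparison chosen after the values had been seen. Choosing genes by high mRNA, which is subtracted in the difference, by itself favours lower values, so these shares are a description only. Among other genes with a mean mRNA of 100 FPKM or more, 31.5% of 644 were lower and 6.83% higher per full length, with a median of −0.60. Of the 71 members at this level, 41 were lower (57.7%) and 1 was higher (1.41%), with a median of −1.15. In deposited FPKM, 23.1% of 649 such other genes were lower and 12.5% higher, with a median of −0.33, and 35.2% of 71 members were lower and 12.7% higher, with a median of −0.60. The difference between members and other abundant genes was not tested.

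**Figure D2:**
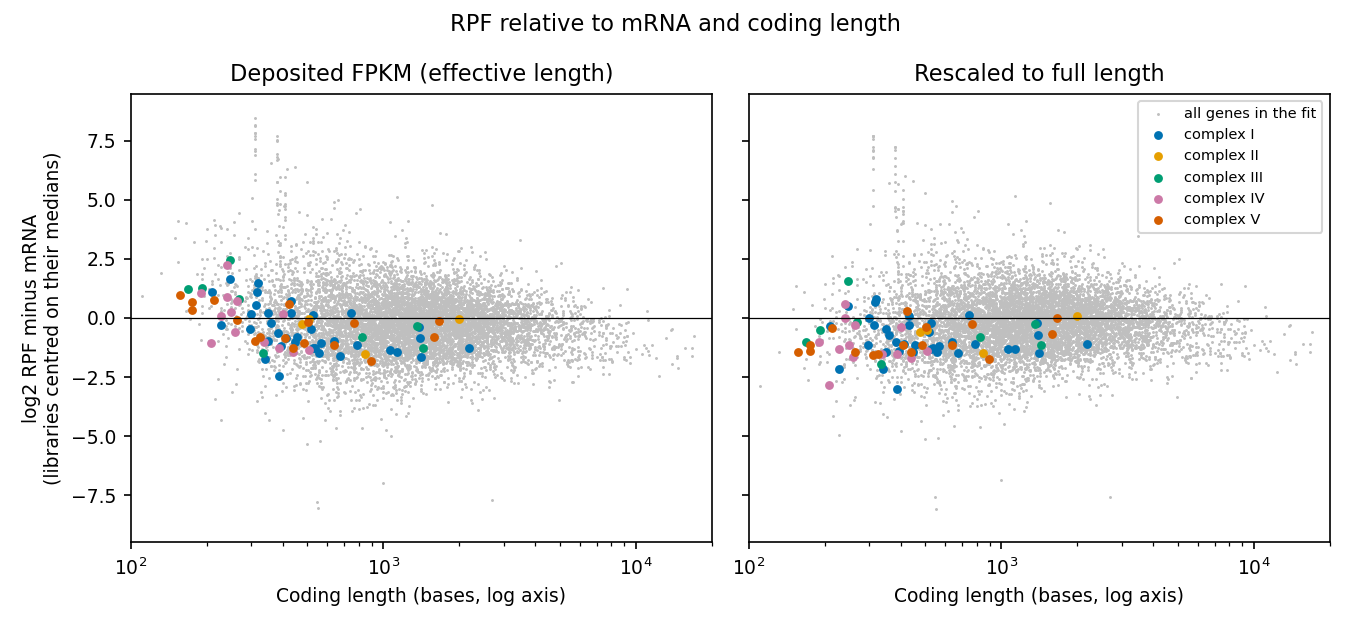
Log2 RPF minus mRNA against coding length in bases (log axis) for each subunit gene (coloured by complex) and all genes compared (grey), with deposited FPKM on the left and values rescaled to full length on the right. On the left the members under 300 bases have a median of 0.77 and longer members −0.85, whereas on the right the medians are −0.9997 and −1.11.

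The median log2 difference of each complex moved with this length scale. Complex I was at −0.82 in FPKM (4 higher and 14 lower of 37) and −1.10 per full length (0 higher and 20 lower of 36). Complex II was at −0.14 and −0.55, with only Sdhb lower on each scale. Complex III was at 0.24 in FPKM and −0.67 per full length, and complex IV at 0.06 and −1.32, so both medians changed sign. Complex V was at −0.19 with 0 higher and 4 lower, and at −1.15 with 0 higher and 11 lower of 17. Over all genes the median was −0.24 on each scale, so complexes II and V lay slightly above the median gene in FPKM. Of all genes, 10.3% were called higher and 8.6% lower in FPKM, and 9.4% and 10.1% per full length. Complex IV, whose members were the shortest (median 261 bases), moved most between the scales, and complex I (432 bases) moved least. The shifts did not follow median coding length throughout. Complex II was the longest (676.5 bases) yet moved more than complex I, and complex V (423 bases) moved more than complex III (300 bases). No test of complexes against each other was made, since members are not replicates.

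**Figure D3:**
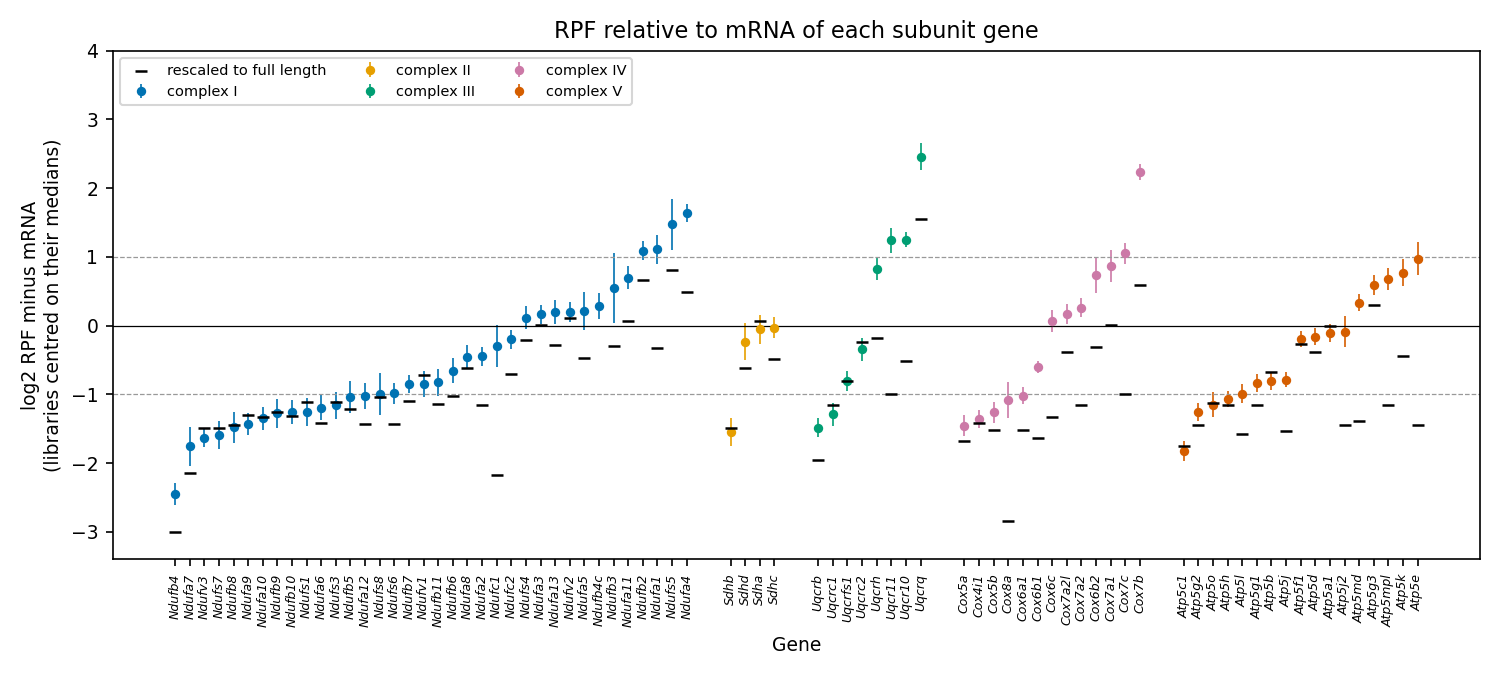
Log2 RPF minus mRNA of 78 members, sorted within complexes, with points for deposited FPKM, bars for the SE and black dashes for values rescaled to full length; dashed lines mark a log2 difference of 1 in either direction. Ndufb4 is lowest at −2.45 and Uqcrq highest at 2.46, and Uqcrq is the member whose dash also lies above 1.

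Complex I had lower members in its electron path as well as in its accessory shell. Of 7 core subunits, which carry the flavin and iron-sulfur centres and the quinone site, Ndufs1, Ndufs3 and Ndufs7 were lower and none was higher. Over all genes, 8.6% were lower and 10.3% higher. Ndufs7, next to the quinone site, had 312 and 356 FPKM in mRNA and 278 and 354 in RPF, a log2 difference of −1.59 ± 0.20 (SE, limma adjusted p = 0.0071). Ndufs1, the largest subunit at 2181 coding bases, had the lowest mean RPF among the compared genes of the complex. It had 54.9 and 51.9 FPKM in mRNA and 66.0 and 61.3 in RPF (−1.25 ± 0.21, limma adjusted p = 0.0146). For these long genes the length scale mattered little, and Ndufs1 was at −1.11 and Ndufs7 at −1.49 per full length. Ndufs3 was at −1.16 ± 0.20 (limma adjusted p = 0.0159), and 57.4% of its windows occurred at more than 1 genome place. Ndufs8 (−0.99), Ndufv1 (−0.85) and Ndufv2, which takes electrons from the flavin site (0.20), did not pass. Without mRNA replicate 2, Ndufs1 (−1.30) and Ndufs3 (−1.07) did not pass, nor without mRNA replicate 1 (−1.21 and −1.25), and Ndufs8 passed without RPF replicate 2 (−1.39).

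Of the 31 accessory subunits, 30 were compared in FPKM and 29 per full length. Of these, 4 were higher and 11 lower in FPKM, and 0 higher and 17 lower per full length. The shares over all genes were 10.3% and 8.6% in FPKM, and 9.4% and 10.1% per full length. Ndufb4 (chr16:37647256-37654539) stood lowest of all members, with 318 and 352 FPKM in mRNA and 172 and 173 in RPF (−2.45 ± 0.16, limma adjusted p = 0.0010). All windows of its coding sequence occurred at more than 1 genome place, and its RPF value in replicate 1 equalled that of the gene Ndufb4c (172), so reads of the pair could not be assigned with certainty. Ndufv3, beside the flavin subunits, had 416 and 430 FPKM in mRNA and 392 and 381 in RPF (−1.63 ± 0.14, limma adjusted p = 0.0022). Ndufa9, a matrix-side subunit with 228 and 229 FPKM in mRNA and 235 and 246 in RPF, was at −1.43 ± 0.16 (limma adjusted p = 0.0046). Ndufa7 (−1.75) and Ndufb8 (−1.48) were lower too, but neither passed without mRNA replicate 2 (−1.73 and −1.38). Ndufa3 had the highest mRNA of complex I, at 804 and 749 FPKM, and its RPF of 2786 and 2188 did not pass (0.17).

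The 4 accessory subunits that were higher in FPKM were all of 318 coding bases or fewer. Ndufa4 carries a complex I symbol, although its product is now placed in complex IV. It had 620 and 739 FPKM in mRNA and 6324 and 5635 in RPF, the highest RPF of its group (1.64 ± 0.13, limma adjusted p = 0.0017). Ndufs5 had 309 and 146 FPKM in mRNA and 1566 and 1795 in RPF, and its 1.47 ± 0.37 fell to 0.93 without mRNA replicate 2, where it did not pass. Ndufa1 (1.11) and Ndufb2 (1.09) also passed, but Ndufa1 did not without either mRNA replicate (1.13 and 1.10) or without RPF replicate 2 (0.83), and Ndufb2 did not without mRNA replicate 2 (1.05). Per full length, none of the 4 passed: Ndufa4 was at 0.50, Ndufs5 at 0.81, Ndufb2 at 0.66 and Ndufa1 at −0.32. For Ndufs5, 73.5% of the windows occurred at more than 1 genome place.

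In complex II, Sdhb led in both mRNA libraries, while the order in RPF changed with the replicate and the length scale. In FPKM Sdhc led in both RPF libraries (372 and 356). Per full length Sdhb led in RPF replicate 1 (241 against 225 for Sdhc) and Sdhc in RPF replicate 2 (215 against 169 for Sdhb). Sdha, the flavoprotein, was lowest in FPKM in all 4 libraries, with 41.8 and 51.3 in mRNA and 130 and 126 in RPF. Sdhb, the iron-sulfur subunit bound to it (chr4:140517118-140535108), had 257 and 290 FPKM in mRNA and 316 and 222 in RPF, and was lower by −1.54 ± 0.20 (limma adjusted p = 0.0076). Per full length, Sdhb was 5.44 and 4.99 times Sdha in mRNA but 2.05 and 1.49 times in RPF. The membrane anchors Sdhc and Sdhd were 3.29 and 2.45 and 1.83 and 1.43 times Sdha in mRNA, and 1.92 and 1.89 and 0.802 and 1.25 times in RPF. From the lowest to the highest gene, the complex spanned 5.44-fold and 4.99-fold in mRNA and 2.56-fold and 1.89-fold in RPF per full length, and 6.15-fold and 5.64-fold in mRNA and 2.86-fold and 2.82-fold in RPF in deposited FPKM. Differences of Sdha (−0.05), Sdhc (−0.03) and Sdhd (−0.23) did not pass.

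Complex III held the member that was higher on each scale. Uqcrq (chr11:53241424-53244333), a small subunit of the membrane part with 246 coding bases, had 202 and 241 FPKM in mRNA and 3027 and 3932 in RPF, with 95.3 and 112 footprints. Its RPF libraries lay far above its mRNA libraries, with a log2 difference of 2.46 ± 0.20 (limma adjusted p = 0.0019) and of 1.55 ± 0.20 per full length (adjusted p = 0.0057), and it passed without each library in turn. None of its windows occurred at another genome place. Uqcr10 had the highest values of the complex, with 1558 and 1668 FPKM in mRNA and 10466 and 11302 in RPF (1.25 ± 0.11, limma adjusted p = 0.0023). Per full length it was at −0.52, and Uqcr11, at 1.24 in FPKM, was at −0.9997 and not called. Uqcrb, near the quinone site of the complex, was lower, with 1054 and 1023 FPKM in mRNA and 989 and 1116 in RPF (−1.48 ± 0.14, limma adjusted p = 0.0028), although 82.8% of its windows occurred at more than 1 genome place.

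The core proteins of complex III were compared in the same way. Uqcrc1 had 218 and 239 FPKM in mRNA and 294 and 238 in RPF, and Uqcrc2 had 112 and 128 in mRNA and 271 and 265 in RPF. Uqcrc1 was lower (−1.29 ± 0.17, limma adjusted p = 0.0075, not passing without mRNA replicate 2 at −1.23), and Uqcrc2 did not pass (−0.35). Per full length Uqcrc2 was 0.521 and 0.543 times Uqcrc1 in mRNA and 0.913 and 1.10 times in RPF. The Rieske iron-sulfur subunit Uqcrfs1 was 0.904 and 0.886 times Uqcrc1 in mRNA and 1.04 and 1.24 times in RPF.

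In complex IV the general forms of the subunits dominated. Of 13 compared genes, 2 were higher and 5 lower in FPKM, and 0 higher and 8 lower per full length. The shares over all genes were 10.3% and 8.6% in FPKM, and 9.4% and 10.1% per full length. Cox5a, on the matrix side, had 1640 and 1609 FPKM in mRNA and 1529 and 1841 in RPF (−1.46 ± 0.15, limma adjusted p = 0.0038). Cox4i1 (chr8:123192190-123198109), with 1591 and 1578 FPKM in mRNA and 1661 and 1845 in RPF, was at −1.36 ± 0.13 (limma adjusted p = 0.0028). Cox8a had the highest mRNA of all members, at 2597 and 2450 FPKM, and 4607 and 2478 in RPF. Its RPF replicates differed widely, and its −1.08 ± 0.27 did not pass without either mRNA replicate (−1.03 and −1.13) or without RPF replicate 2 (−0.68), but per full length it was at −2.84. Cox6a1 was at −1.02 and did not pass without RPF replicate 1 (−0.90). Cox7b (chrX:103211039-103217789) was higher, with 457 and 455 FPKM in mRNA and 5838 and 6358 in RPF (2.24 ± 0.12, limma adjusted p = 0.0006), and stayed positive at 0.59 per full length, where it was not called. Cox7c had the highest RPF of the complex (7852 and 9245 FPKM), and its 1.05 fell to 0.93 and 0.89 without mRNA replicate 2 and RPF replicate 2, and to −0.996 per full length, with all of its windows at more than 1 genome place.

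The ATP synthase genes had the evenest mRNA levels, and the RPF of the gamma subunit gene Atp5c1 was the lowest of them. Atp5c1 (chr2:9977643-10002137) had 587 and 676 FPKM in mRNA and 541 and 470 in RPF (−1.82 ± 0.14, limma adjusted p = 0.0018). Atp5a1, the alpha subunit, had 419 and 400 FPKM in mRNA and 1158 and 1000 in RPF (−0.11), and Atp5b, the beta subunit, had 788 and 770 in mRNA and 1349 and 1175 in RPF (−0.81), and neither was called. Alpha and beta are present in several copies for each gamma subunit, and the ring in more. Per full length Atp5a1 was 0.793 and 0.657 times Atp5c1 in mRNA, but 2.43 and 2.41 times in RPF. Atp5b was 1.45 and 1.23 times Atp5c1 in mRNA and 2.81 and 2.81 times in RPF. The c subunit genes together were 3.80 and 3.59 times Atp5c1 in mRNA and 7.24 and 8.96 times in RPF.

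Each of these ratios was higher in both RPF libraries than in both mRNA libraries, and the subunits present once per enzyme showed the shift too. Atp5d, the delta subunit, was 0.762 and 0.643 times Atp5c1 in mRNA and 1.74 and 1.89 times in RPF, and Atp5f1, the stator b subunit, was 0.798 and 0.729 times in mRNA and 2.01 and 2.24 times in RPF. Atp5o, which joins the stator to the head, was 1.21 and 1.21 times in mRNA and 1.54 and 2.23 times in RPF. For Atp5e, the epsilon subunit, the libraries overlapped, with 1.76 and 1.62 times in mRNA and 1.56 and 2.79 times in RPF. The shared denominator Atp5c1 was itself lower in RPF, and 25.5% of its windows occurred at more than 1 genome place. This share was 56.5% for Atp5f1 and 31.5% for Atp5o. These ratios are descriptions, and no test was made of them. Atp5k, a small membrane subunit with the highest mRNA (1997 and 1932 FPKM) and RPF (8024 and 11240) of the complex, was at 0.77 in FPKM and −0.44 per full length, and without RPF replicate 1 it passed at 1.06, as Atp5e did at 1.34 (0.97 with all libraries).

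**Figure D4:**
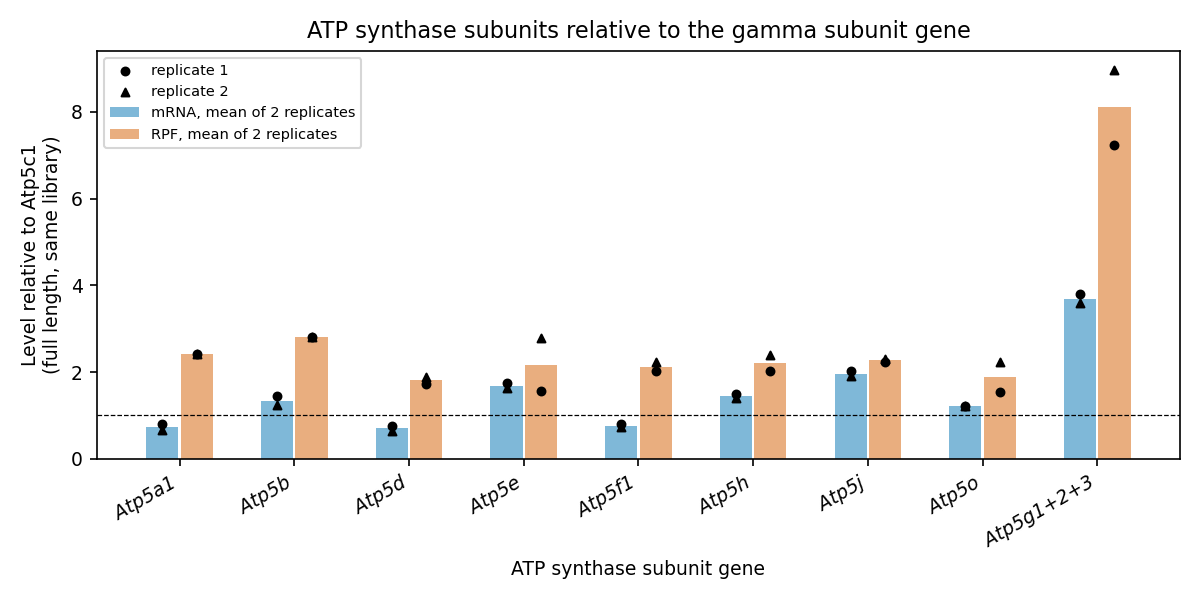
Level of ATP synthase subunit genes relative to the gamma subunit gene Atp5c1 in the same library, rescaled to full length; bars are means of 2 replicates, symbols are the replicates, and the dashed line marks a ratio of 1. The summed c subunit genes are at 7.24 and 8.96 in RPF and at 3.80 and 3.59 in mRNA.

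The c subunit genes printed above shared their message pool almost evenly, but not their footprints. Per full length Atp5g1 had 35.9% and 36.6% of the summed mRNA, Atp5g2 35.2% and 34.6%, and Atp5g3 28.9% and 28.8%. In RPF Atp5g3 had 52.5% and 57.2%, Atp5g1 24.8% and 25.6%, and Atp5g2 22.7% and 17.3%. Atp5g3 therefore held the smallest share of mRNA and the largest share of RPF in both replicates. In FPKM Atp5g3 had 742 and 804 in mRNA and 3036 and 3560 in RPF (0.59, not called), Atp5g2 had 943 and 1007 in mRNA and 1277 and 1042 in RPF (−1.26 ± 0.13, limma adjusted p = 0.0039), and Atp5g1 had 934 and 1035 in mRNA and 1484 and 1645 in RPF (−0.83, not called). All windows of Atp5g2 and 82.6% of those of Atp5g1 occurred at more than 1 genome place, against 0 of Atp5g3, and the part of this in the RPF shares was not tested. The order of Atp5g1 and Atp5g2 in mRNA changed with the library, since their log2 ratio was −0.014 in replicate 1 and 0.039 in replicate 2.

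The tissue forms of complex IV were absent or scarce. Cox4i2, the lung form (chr2:152579909-152590773), was at 0 in all 4 libraries, so Cox4i1 was at least 1521-fold and 1427-fold higher in mRNA and at least 93.4-fold and 94.1-fold higher in RPF, against a floor of 3 fragments per library. The heart and muscle forms Cox6a2 and Cox8b were at 0 in all 4 libraries too. Cox6a1 was at least 990-fold and 945-fold above Cox6a2 in mRNA and 26.9-fold and 27.1-fold in RPF, and Cox8a at least 762-fold and 680-fold above Cox8b in mRNA and 29.6-fold and 14.4-fold in RPF. These floors cover counting error only. The lower RPF bounds followed from the smaller number of footprints and from the shorter effective length of coding sequences. The muscle form Cox7a1 (chr7:30969190-30971047) was the exception among the muscle forms, with 18.6 and 21.8 FPKM in mRNA and 103 and 114 in RPF. That RPF was 3.01 footprints in each replicate, whereas Cox7a2 had 826 and 785 FPKM in mRNA and 2565 and 2911 in RPF, and Cox7a2l, known for joining complexes III and IV, had 153 and 151 in mRNA and 490 and 480 in RPF.

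Of the testis forms, Cox6b2 (chr7:4703396-4704696) had 31.2 and 24.3 FPKM in mRNA and 155 and 114 in RPF, which was 6.01 and 4.01 footprints. Its general form Cox6b1, at 2161 and 2197 FPKM in mRNA and 4175 and 3961 in RPF, was 69.4-fold and 90.5-fold higher in mRNA and 26.9-fold and 34.7-fold higher in RPF. Cox7b2 was at 0 except for 2.01 footprints in RPF replicate 2, and Cox8c at 0 except for 1.92 FPKM in mRNA replicate 2. Of 6 testis germ cell markers, Prm1, Tnp1 and Pgk2 were at 0 in all libraries and none was at 1 FPKM or more in all, and the list summed to 0.488 and 0.858 FPKM in mRNA and to 0 and 36.3 in RPF. The part of these cells in the values was not tested. Neither Cox6b2 (0.73) nor Cox7a1 (0.87) passed the comparison of RPF with mRNA, and both were near 0 or below it per full length (−0.31 and 0.02). No coding window was shared between a general form and its tissue forms in these Cox families. Ndufa4l2, a paralog of Ndufa4 known from hypoxia, was at 0 in both mRNA libraries and at 93.6 and 14.7 FPKM in RPF, which was 3.51 and 0.501 footprints, and 1 of its 237 windows was shared with Ndufa4.

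**Figure D5:**
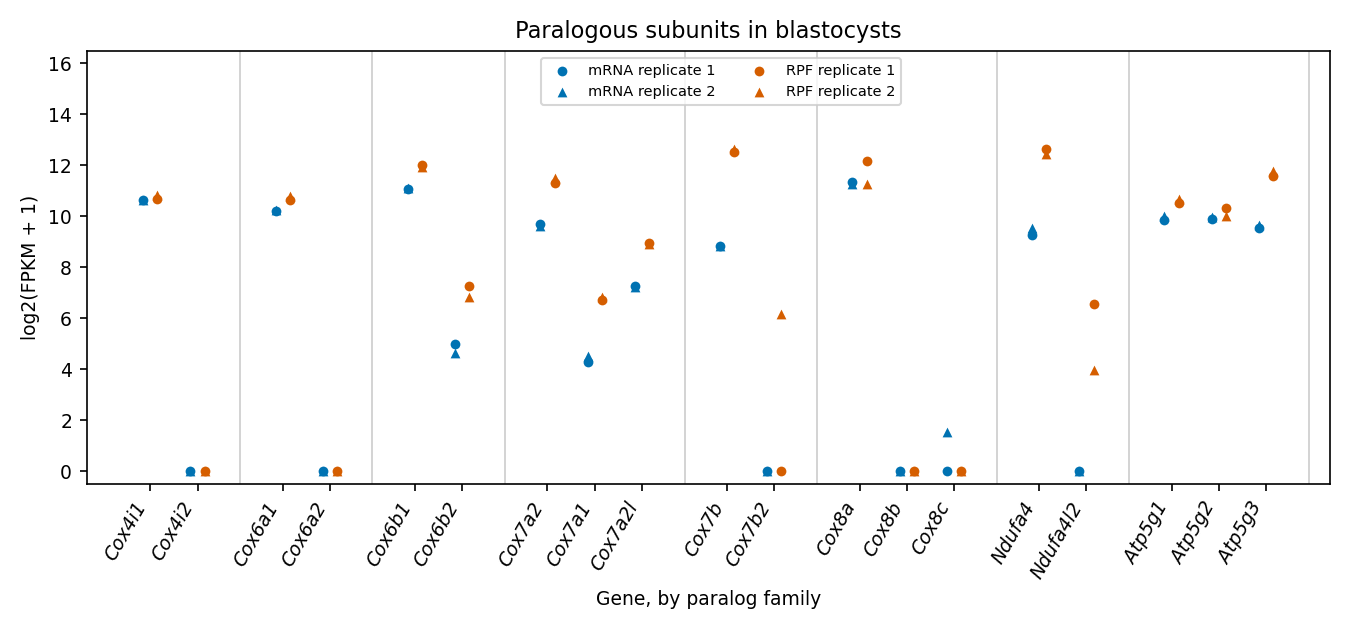
Levels of paralogous subunit genes as log2(FPKM + 1) in mRNA (blue) and RPF (orange), with circles for replicate 1 and triangles for replicate 2 and grey lines between families. Cox4i2, Cox6a2 and Cox8b are at 0 in all 4 libraries, and Atp5g3 is the lowest c subunit gene in mRNA and the highest in RPF.

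Promoter sequence was examined for the paralog pairs because their levels differed so widely. RefSeq promoters (GRCm38.p6, 250 bases before to 50 after the start) were found for 67 of the 85 genes, as 72 windows. They were searched on both strands for the NRF1 motif (GCGCA, any base, GCGC), the ETS motif CCGGAAG bound by the GABP factor and the YY1 motif AAGATGGC, which do not contain each other. NRF1 was in 25.0% of members' promoters, 4.60% of all 32851 promoters and 11.8% of promoters of compared genes. For ETS the shares were 23.6%, 8.86% and 21.1%, and for YY1 12.5%, 2.75% and 5.54%. In complex I, NRF1, ETS and YY1 matches lay in 8, 4 and 7 of 34 windows, in complex IV in 1, 3 and 0 of 13, and in complex V in 6, 6 and 2 of 17. In complex II they lay in 2, 2 and 0 of 3 and in complex III in 1, 2 and 0 of 5. Of the windows printed, Cox6b1 had 17 CpG and Cox6b2 10, Cox8a had 19 and Cox8b 2, and Cox7a2 had 20 and Cox7a1 7. For Cox7b and Cox7b2, which are not printed, the order was the other way, with 5 and 10 CpG. Capitals mark ETS matches, here on the opposite strand (CTTCCGG), and such a match is a description of the letters only. The Cox6b1 and Cox8a windows held an ETS match and those of Cox7a2 and of the tissue forms printed held no match to the 3 motifs. The windows are chr7:30626065-30626364, chr7:4753045-4753344, chr19:7217567-7217866, chr7:140900397-140900696 and chr9:79759804-79760103 on the minus strand and chr7:30183921-30184220 (Cox7a1) on the plus strand, in the order below, printed 5′ to 3′ in the direction of the gene.
Cox6b1: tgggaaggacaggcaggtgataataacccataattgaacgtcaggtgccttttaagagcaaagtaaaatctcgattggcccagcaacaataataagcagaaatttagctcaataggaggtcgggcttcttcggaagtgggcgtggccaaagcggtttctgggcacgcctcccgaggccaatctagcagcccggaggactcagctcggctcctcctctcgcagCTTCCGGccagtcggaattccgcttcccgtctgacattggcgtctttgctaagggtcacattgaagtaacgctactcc
Cox6b2: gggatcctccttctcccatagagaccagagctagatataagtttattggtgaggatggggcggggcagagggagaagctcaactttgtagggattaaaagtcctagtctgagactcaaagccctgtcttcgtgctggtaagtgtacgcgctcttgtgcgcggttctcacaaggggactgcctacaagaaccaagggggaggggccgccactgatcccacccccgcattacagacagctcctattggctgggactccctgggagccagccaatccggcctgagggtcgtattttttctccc
Cox8a: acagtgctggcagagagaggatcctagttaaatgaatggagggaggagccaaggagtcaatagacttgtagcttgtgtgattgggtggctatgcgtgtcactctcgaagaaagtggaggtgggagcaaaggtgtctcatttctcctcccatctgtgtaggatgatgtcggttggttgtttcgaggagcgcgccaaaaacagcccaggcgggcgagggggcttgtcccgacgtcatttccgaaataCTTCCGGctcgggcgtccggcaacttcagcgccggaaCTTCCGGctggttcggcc
Cox8b: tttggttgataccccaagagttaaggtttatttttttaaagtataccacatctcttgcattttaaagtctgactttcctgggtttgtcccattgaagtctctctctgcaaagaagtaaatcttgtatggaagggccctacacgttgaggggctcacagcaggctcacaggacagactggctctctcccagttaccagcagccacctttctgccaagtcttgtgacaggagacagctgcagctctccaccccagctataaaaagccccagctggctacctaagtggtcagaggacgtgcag
Cox7a2: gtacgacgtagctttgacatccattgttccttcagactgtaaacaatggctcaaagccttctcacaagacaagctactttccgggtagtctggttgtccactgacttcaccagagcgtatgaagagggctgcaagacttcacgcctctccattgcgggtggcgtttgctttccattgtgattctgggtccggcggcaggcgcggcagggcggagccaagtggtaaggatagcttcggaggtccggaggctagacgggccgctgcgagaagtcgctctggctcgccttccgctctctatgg
Cox7a1: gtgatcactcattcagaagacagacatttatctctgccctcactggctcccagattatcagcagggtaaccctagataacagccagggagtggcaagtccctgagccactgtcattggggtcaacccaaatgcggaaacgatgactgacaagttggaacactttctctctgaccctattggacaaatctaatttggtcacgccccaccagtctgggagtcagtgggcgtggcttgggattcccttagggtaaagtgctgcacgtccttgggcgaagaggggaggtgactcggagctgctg

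Genes that build, feed or regulate the chain were compared in the same way. Among all genes 10.3% were called higher and 8.6% lower in FPKM, and 9.4% and 10.1% per full length. The lists are short, so their counts are a description only. Of 13 complex I assembly factors, with a median of 9.24 and 10.5 FPKM in mRNA, 0 were higher and 2 lower (Ndufaf6 at −1.53 and Tmem126b at −1.76), and the median was −0.96, or −0.92 per full length. Of 17 compared assembly factors of complexes II to V, Cox15 (1.22), Cox16 (1.68) and the copper chaperone Cox17 (1.13) were higher and Cox18 (−3.15) lower, with a median of 0.30, or −0.39 per full length, where Cox15 alone stayed higher. Of 12 compared electron carriers and exchangers, cytochrome c (Cycs, 1.65), the ATP synthase inhibitor Atpif1 (1.23) and the outer membrane channel Vdac1 (1.61) were higher and Vdac3 (−1.35) lower, with a median of −0.42, or −0.43 per full length, where only Vdac1 stayed higher. In the citric acid cycle 0 of 13 were higher and Idh3b (−1.02) and Idh3g (−1.81) were lower, with a median of −0.51. Per full length Idh3g alone was lower, Idh3b was at −0.94 and the median was −0.37. Of 11 compared regulators of mitochondrial biogenesis, Yy1 (3.20), the mitochondrial DNA factor Tfam (2.51) and the GABP subunit Gabpa (1.67) were higher and Tfb1m (−2.70) lower, on each scale, and Ppargc1a was at 0 in all 4 libraries. The members' median per full length (−1.11) was below that of each of these lists, which is a description of unequal lists.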

How the data were processed

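RNA-seq and Ribo-seq of blastocysts were analysed with 2 libraries per assay. The authors trimmed reads with Trim Galore 0.4.2 or cutadapt 1.14, removed rRNA in Ribo-seq with Bowtie2 2.2.2, mapped to the mm9 transcriptome with STAR 2.5.3a (up to 20 places per read), and deposited FPKM from Cufflinks 2.2.1, on transcripts for RNA-seq and coding sequences for Ribo-seq. The embryos are hybrids and were mapped to 1 reference genome. The deposited FPKM held no counts. The implied fragments placed 62.6% and 60.0% of tested mRNA values and 85.4% and 86.8% of RPF values within 0.1 of a whole number (20.0% by chance), with normal fragment lengths (mean 200, SD 80 bases), so no count test was run. Coding lengths and 28-base windows came from GENCODE vM1 on NCBIM37. In 15 of the 84 members with windows, most windows occurred at 2 or more genome places, counted whether or not these lay in coding sequence. Where a symbol had several entries, the highest was taken.

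RPF was compared with mRNA by limma 3.58.1 (R 4.3.3, trend), two-sided, on log2(FPKM + 1), which understates changes of low genes, for genes with a mean of at least 1 FPKM in both assays and each library centred on the median gene. A call needed a size of at least 1 on the log2 scale and, after Benjamini-Hochberg adjustment, a p under 0.05. Other steps used Python 3.11.15, numpy 2.4.6, scipy 1.17.1 and pandas 2.3.3, and the fit and the depth estimate were tested on simulated data. Named genes were the paralog families, the highest and lowest of each complex, up to 10 calls in each direction, members at 0, core subunits and up to 3 calls in each direction from each other list; the rest were named after their values were seen. The members, lists and markers were chosen with earlier results of these data known. Alternatives were the pseudocount, filters, scaling, length, the replicate number as a block, duplicate symbols and each library left out. The values of 1 gene are not reported here.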

Additional observations from a re-analysis of the deposited data

How the results depend on the processing

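Full length, scaling and the filter moved most results, and footprint depth limited the low paralogs. With a pseudocount of 0.1 the median member difference was −0.55 and complex I −0.92. With no filter 51 members were higher and 0 lower, the median was 1.42, and complexes I to V were at 1.13, 1.72, 2.10, 1.06 and 1.67. With no centring 41 were higher and 0 lower, the median was 1.05, and the complexes were at 0.68, 1.36, 1.74, 1.56 and 1.31. With quantile normalization 5 were higher, the median was −0.65, and complexes I, II, III and V were at −1.09, −0.42, 0.043 and −0.65. With the coding length trend removed 2 were higher, the median was −0.91, and complexes I, III, IV and V were at −1.09, −0.23, −0.92 and −0.90. At full length 1 was higher and 42 lower, the median was −1.11, and the complexes were at −1.10, −0.55, −0.67, −1.32 and −1.15. Quantile, filter and centring changes follow from the scale that each sets between the assays.

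Leaving out each library gave 5 to 13 higher and 13 to 26 lower, a median of −0.55 to −0.44, and −0.85 to −0.75 in complex I, −0.32 to −0.02 in II, 0.13 to 0.35 in III, −0.14 to 0.14 in IV and −0.41 to −0.18 in V. At full length it gave 1 to 2 higher and 38 to 43 lower. Without mRNA replicate 2 the log2 ratio of Atp5g1 to Atp5g2 in mRNA was −0.014, and without mRNA replicate 1 it was 0.039.

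Signs turned positive with no filter for Atp5c1 (0.045), Atp5g2 (0.61), Cox4i1 (0.51), Cox5a (0.41), Cox6a1 (0.85), Cox8a (0.79), Ndufa7 (0.11), Ndufa9 (0.44), Ndufb8 (0.39), Ndufs1 (0.61), Ndufs3 (0.71), Ndufs7 (0.28), Ndufv3 (0.23), Sdhb (0.32), Uqcrb (0.38) and Uqcrc1 (0.57), and with no centring for Atp5g2 (0.24), Cox4i1 (0.14), Cox5a (0.047), Cox6a1 (0.48), Cox8a (0.42), Ndufa9 (0.073), Ndufb8 (0.023), Ndufs1 (0.25), Ndufs3 (0.34), Uqcrb (0.017) and Uqcrc1 (0.21). They turned negative with the length trend removed for Cox7c (−0.16) and Uqcr11 (−0.11), and at full length for Cox7c (−0.996), Ndufa1 (−0.32), Uqcr10 (−0.52) and Uqcr11 (−0.9997).

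Replicate numbers come from the labels, and no source says that equal numbers share embryos; replicate deviations had a correlation of 0.01 over 8327 genes, so the numbers were not used as pairs. With the replicate block 9 members were higher and 26 lower, as without it, and no named member's call changed. A mean of at least 5 FPKM gave 9 and 29, and summed duplicate symbols 9 and 26. The planned run without non-subunits had no gene to leave out.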
